A study of Mus musculus with 4 samples.

Results

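Interferon-responding cells were studied among invariant natural killer T (iNKT) cells of the thymus. These are lymphocytes with a nearly fixed T cell receptor that reads lipid antigens held by CD1d. They were chosen by detection: a barcode was a member when at least 3 of Ifit1, Ifit3, Ifit3b, Isg15, Rsad2 and Usp18 had at least 1 unique molecular identifier (UMI). Barcodes also needed at least 1000 UMIs, at least 500 genes and under 10% mitochondrial UMIs. They needed 0 UMIs of the B cell gene Cd79a and of the thymocyte gene Rag1, and at most 2 of 7 cell cycle genes detected. Of 30455 barcodes, 28054 were eligible and 2649 of these were members, which left 25405 other eligible iNKT cells. The libraries were 2 labelled ACC1 knockout (ACC1 KO) and 2 labelled wild type (WT), numbered 1 and 2 in each genotype, from thymocytes of mice 6 to 8 weeks old. Cells positive for CD3 and the CD1d tetramer were sorted and sequenced from the 3′ end on the 10x Genomics Chromium platform. ACC1, the product of Acaca, carboxylates acetyl-CoA at the start of fatty acid synthesis, and the series concerns its part in the survival of these cells. The sources used here do not give the strain, the deleted stretch of Acaca, any Cre driver, or how many animals gave each library.

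Type I interferons bind the receptor IFNAR1/IFNAR2 and, through the kinases JAK1 and TYK2, activate STAT proteins. A complex that contains STAT2 and IRF9 recognises the interferon-stimulated response element upstream of many antiviral genes. Type I interferon in the thymus is known to act on T cells in late maturation. Of the 6 genes of the rule, the IFIT proteins bind foreign RNA, RSAD2 (viperin) is an antiviral enzyme, ISG15 is a ubiquitin-like modifier, and USP18 removes ISG15 and dampens the type I receptor.

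The core of that element, taken as GAAA, any 2 bases and GAAA on either strand, was searched in the 250 bases upstream of RefSeq gene starts (GRCm38.p6). All 5 rule genes with an entry (Ifit1, Ifit3, Ifit3b, Isg15 and Rsad2) held a match, as did 38 of 102 other interferon-induced genes described below. Across all genes in the table the share with a match was 3.46%, 936 of 27025 genes. The stretches around the matches of the 5 rule genes are shown because these genes define the cells. Those of Slfn5, Stat2 and Cxcl10 are shown as examples outside the rule, chosen after their values were seen. Capitals mark the matches, each stretch runs 5′ to 3′ along the gene's own strand, and a match is a description of letters and not evidence of binding.
Ifit1 (chr19:34640765-34640833, plus strand): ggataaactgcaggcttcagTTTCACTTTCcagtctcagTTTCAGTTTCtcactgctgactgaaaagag
Ifit3 (chr19:34583353-34583436, plus strand): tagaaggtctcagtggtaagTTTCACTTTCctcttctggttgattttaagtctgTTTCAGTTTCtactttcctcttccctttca
Ifit3b (chr19:34607749-34607832, plus strand): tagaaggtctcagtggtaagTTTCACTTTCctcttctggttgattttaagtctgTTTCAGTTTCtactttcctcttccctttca
Rsad2 (chr12:26456543-26456592, minus strand): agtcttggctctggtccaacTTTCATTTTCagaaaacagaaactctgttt
Isg15 (chr4:156200855-156200916, minus strand): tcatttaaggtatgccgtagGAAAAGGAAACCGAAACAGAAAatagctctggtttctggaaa
Slfn5 (chr11:82951927-82951976, plus strand): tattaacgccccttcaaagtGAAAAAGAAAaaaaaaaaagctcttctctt
Stat2 (chr10:128270256-128270305, plus strand): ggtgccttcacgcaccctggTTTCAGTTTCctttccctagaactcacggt
Cxcl10 (chr5:92349073-92349122, minus strand): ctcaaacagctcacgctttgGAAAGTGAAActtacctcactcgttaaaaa
The first match began 104 bases upstream of the start of Ifit1, 156 upstream of Ifit3, 188 upstream of Ifit3b, 120 upstream of Rsad2 and 78 upstream of Isg15. Isg15 carried 3 overlapping matches, and Ifit1, Ifit3 and Ifit3b carried 2 each. The printed stretches of the neighbouring genes Ifit3 and Ifit3b were identical in all 84 bases. Their longest protein-coding transcripts were 81.7% identical when aligned in full and 47.4% in the last 500 bases, the end that 3′ libraries read. The sources used here do not say how reads matching both were counted, so the split of counts between these genes is uncertain.

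The libraries were not alike in depth. Eligible cells numbered 5714 and 8011 in ACC1 KO 1 and 2, and 4773 and 9556 in WT 1 and 2. Members had a median of 4861 and 7457 UMIs in ACC1 KO 1 and 2, and 4767 and 6604 in WT 1 and 2. The other cells were close to them, with medians of 4463 and 7349 UMIs in the ACC1 KO libraries and 4666 and 6271 UMIs in the WT libraries. Both libraries numbered 2 were the deeper ones, and members of these carried Xist, the female-expressed X inactivation RNA, at 592 (ACC1 KO) and 572 (WT) CPM, the UMI count scaled to a fixed total for each sum. Those of both libraries numbered 1 instead had Ddx3y, a gene on the Y chromosome, at 75.7 (ACC1 KO) and 72.2 (WT) CPM. Depth, sex and library number cannot be told apart, so values are given within each number. Pairs of libraries shared 10 to 27 barcodes. The sums over members held 2707586 and 8374080 UMIs in ACC1 KO 1 and 2, and 1744187 and 7175095 UMIs in WT 1 and 2.

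The rule itself sets the levels of its 6 genes, which are therefore given as description. Ifit3 was the most abundant of them in the libraries numbered 1. It stood at 818 and 445 CPM in members of ACC1 KO 1 and 2 and at 809 and 434 CPM in members of WT 1 and 2. In the other cells Ifit3 had 51.3 and 20.7 CPM (ACC1 KO) and 39.5 and 21.4 CPM (WT). Ifit1 had 414 and 320 CPM in ACC1 KO members and 397 and 314 CPM in WT members, against 10.7 to 18.8 CPM in the other cells of the 4 libraries. Rsad2 was the lowest of the 6 outside the members, at 1.64 to 3.17 CPM, and had 205 and 127 CPM in ACC1 KO members and 185 and 98.5 CPM in WT members. Usp18 had 118 to 220 CPM and Ifit3b 136 to 158 CPM in members of the 4 libraries, above 10.1 and 6.27 CPM at most in the other cells.

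Isg15 went the other way between library numbers. It had 97.1 and 478 CPM in members of ACC1 KO 1 and 2, and 92.3 and 516 CPM in members of WT 1 and 2. Among the other cells it had 4.28 and 30.6 CPM (ACC1 KO) and 3.56 and 34.5 CPM (WT). The libraries numbered 1 were thus low and those numbered 2 high in both cell sets and both genotypes, while Ifit3, Rsad2 and Usp18 were higher in the libraries numbered 1. At least 1 UMI of Isg15 was seen in 38.4 and 88.5% of ACC1 KO members and in 38.5 and 91.5% of WT members. Since Isg15 is 1 of the 6 genes counted by the rule, shares of members are also given without it.

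**Figure D1:**
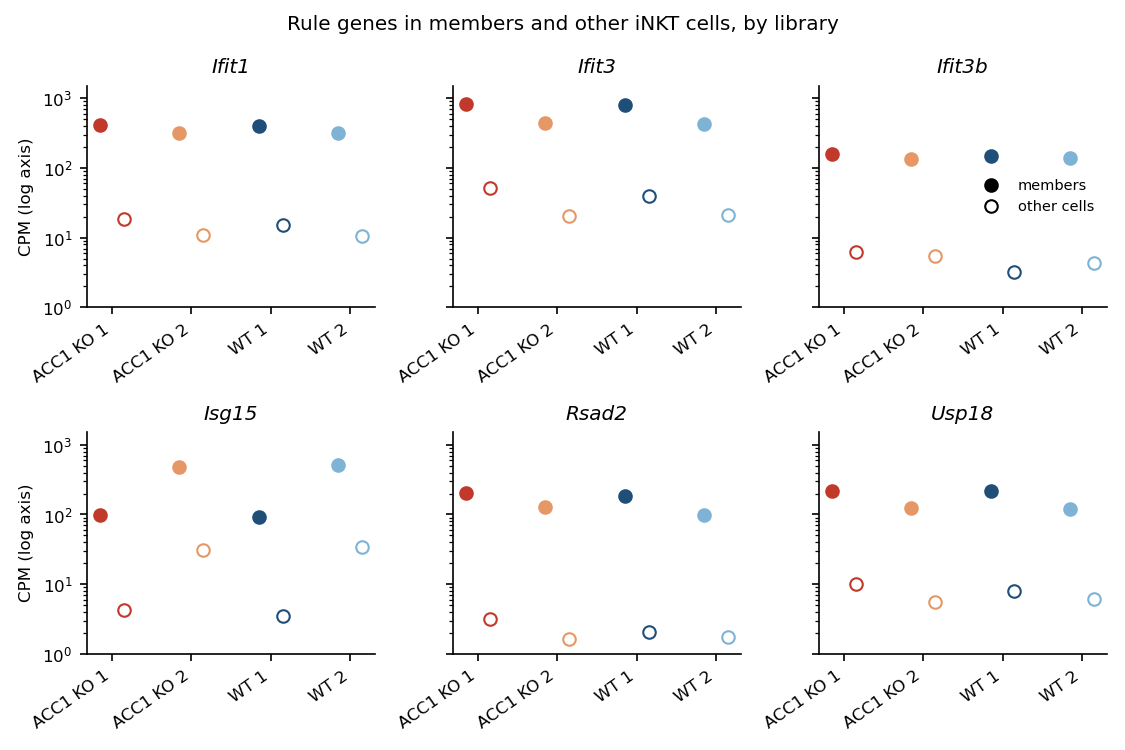
CPM (log axis) of the 6 rule genes in each library, for members (filled circles, left of each pair) and other eligible cells (open circles). Every filled circle lies above its open one because the rule chose the members by these genes; Isg15 has 97.1 (ACC1 KO) and 92.3 CPM (WT) in members of the libraries numbered 1 and 478 (ACC1 KO) and 516 CPM (WT) in those numbered 2.

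Genes of T cells and of the iNKT lineage were detected in members. Cd3e, a chain of the T cell receptor complex, had 436 and 514 CPM in ACC1 KO members and 635 and 684 CPM in WT members, with 462 and 517 CPM (ACC1 KO) and 646 and 702 CPM (WT) in the other cells. Zbtb16, which encodes the iNKT lineage factor PLZF, had 165 and 216 CPM in ACC1 KO members and 218 and 209 CPM in WT members, with 169 and 240 CPM (ACC1 KO) and 194 and 167 CPM (WT) in the other cells. Cd3e was slightly lower in members in each library, and Zbtb16 was higher in members of both WT libraries and lower in those of both ACC1 KO libraries. Among B cell markers, Cd79a was at 0 by the rule, and Ms4a1, Ebf1 and Cd79b had at most 1.55 CPM in members. Ighm was higher, with 105 and 94.6 CPM in ACC1 KO members and 70.5 and 84.5 CPM in WT members, against 94.7 and 83.4 CPM (ACC1 KO) and 81.8 and 81.9 CPM (WT) in the other cells. Siglech of plasmacytoid dendritic cells had 0 UMIs in members of all 4 libraries, and the myeloid receptor gene Csf1r had at most 1.85 CPM. The summed myeloid list of 6 markers had 348 and 288 CPM in ACC1 KO members and 347 and 363 CPM in WT members, against 308 to 405 CPM in the other cells, most of it from Fcer1g. Summed plasmacytoid markers were higher in members, at 331 to 393 CPM against 120 to 150 CPM, through Bst2, which is itself interferon-induced.

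The share of barcodes with high simulated-doublet scores was larger in members. It was 9.98 and 13.7% of ACC1 KO members and 6.73 and 15.4% of WT members, against 4.26 and 5.91% (ACC1 KO) and 4.10 and 7.16% (WT) of the other cells. When those barcodes were left out, the median log2 ratio of the interferon-induced genes described next was 1.43, against 1.35 with them.

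Most of the other interferon-induced genes were also higher in members. Of 133 interferon-induced genes listed outside the rule, 118 were measured at 10 CPM or more. Of those, 69 were at least 2-fold higher in members in all 4 libraries, and 114 were higher by any amount in all 4. Across all 8041 genes at that level, 1.13% were at least 2-fold higher and 15.2% higher by any amount in all 4 libraries. The median log2 ratio of the 118 genes, members over other cells, was 1.35, against -0.03 for all genes (log2 of CPM + 5, mean of 4 libraries). These ratios come from the cell split that the rule made and carry no test.

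The genes that sense viral nucleic acid stood high. The median log2 ratio of 13 sensors was 1.81, and 12 of them were at least 2-fold higher in all 4 libraries. Zbp1, a sensor of Z-form nucleic acid, had 199 and 194 CPM in ACC1 KO members and 208 and 195 CPM in WT members, against 38.4 to 43.0 CPM in the other cells. Ifi206 of the AIM2-like receptor family had 393 and 305 CPM in ACC1 KO members and 469 and 373 CPM in WT members. It had 101 and 77.1 CPM (ACC1 KO) and 110 and 94.8 CPM (WT) in the other cells, a ratio of 3.86-fold on the CPM + 5 scale. Its relatives Mndal, Ifi203, Ifi209 and Ifi213 were 2.42- to 3.51-fold higher. Ifi203, Mndal and their neighbours form a family of similar genes, so that reads may be split among them.

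Enzyme families of the antiviral response had similar medians. In the group of oligoadenylate synthetase (OAS) genes, antiviral enzymes that answer to double-stranded RNA, 5 of 6 genes were at least 2-fold higher and the median log2 ratio was 1.91. Oasl2 had 110 and 95.2 CPM in ACC1 KO members and 91.2 and 75.0 CPM in WT members, against 8.52 to 14.9 CPM in the other cells, a 5.95-fold ratio. The PARP family, ADP-ribosyltransferases many of which are antiviral, had a median log2 ratio of 1.81 with 5 of 6 genes past 2-fold. Parp14 had 333 and 193 CPM in ACC1 KO members and 380 and 206 CPM in WT members, against 55.3 to 89.0 CPM in the other cells. Among genes that attach ISG15 to proteins, Herc6, the mouse ligase for ISG15, was 4.89-fold higher and Uba7, its activating enzyme, 1.57-fold.

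Interferon-inducible GTPases, which attack intracellular parasites and bacteria, formed the next block. All 15 genes of the GBP and IRG families at 10 CPM or more were higher in members in all 4 libraries, 12 of them at least 2-fold, with a median log2 ratio of 1.51. Igtp had 164 and 122 CPM in ACC1 KO members and 216 and 138 CPM in WT members, against 31.7 to 51.9 CPM in the other cells. Iigp1, named after its values were seen, was the highest of the group by ratio, 8.78-fold, with 127 and 74.2 CPM in ACC1 KO members and 131 and 71.2 CPM in WT members against 4.79 to 9.31 CPM. It was seen in 27.8 and 22.1% of ACC1 KO members and 26.3 and 21.3% of WT members. Members of these families resemble each other in sequence, and their counts may be split.

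The transcription factors that carry the signal were higher in members, whereas most receptor and kinase genes were at similar levels. Stat2 had 108 and 69.9 CPM in ACC1 KO members and 135 and 75.5 CPM in WT members, against 20.9 and 18.7 CPM (ACC1 KO) and 21.1 and 18.8 CPM (WT) in the other cells, a 3.98-fold ratio. Irf7, which amplifies interferon production, was 4.21-fold and Irf9 2.21-fold higher. Irf1, better known as a target of interferon gamma, was 1.42-fold higher. The receptor and kinase genes had a median log2 ratio of 0.087, and none of 7 reached 2-fold in all libraries. Ifnar1 had 72.4 and 56.2 CPM in ACC1 KO members and 84.3 and 53.2 CPM in WT members, against 62.7 and 52.1 CPM (ACC1 KO) and 62.7 and 54.2 CPM (WT) in the other cells. Ifngr1 was 1.02-fold, Jak1 1.06-fold, and Jak2 1.49-fold higher. Among feedback genes, Socs1 was 1.40-fold and Usp25, a deubiquitinating enzyme, 1.96-fold higher.

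Antigen presentation genes, which both interferon types induce, differed by less. The 19 genes of MHC class I presentation had a median log2 ratio of 0.41, and 18 were higher in all 4 libraries, none at least 2-fold in all 4. H2-K1 was abundant everywhere, with 2504 and 1669 CPM in ACC1 KO members and 2679 and 1955 CPM in WT members, against 2079 and 1329 CPM (ACC1 KO) and 2200 and 1711 CPM (WT) in the other cells. B2m was 1.22-fold and the immunoproteasome subunit Psmb8 1.36-fold higher. Other surface genes ranged more widely: Ly6a (Sca-1) was 2.28-fold, Cd274 (PD-L1) 2.15-fold and Ly6c2 1.30-fold higher.

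**Figure D2:**
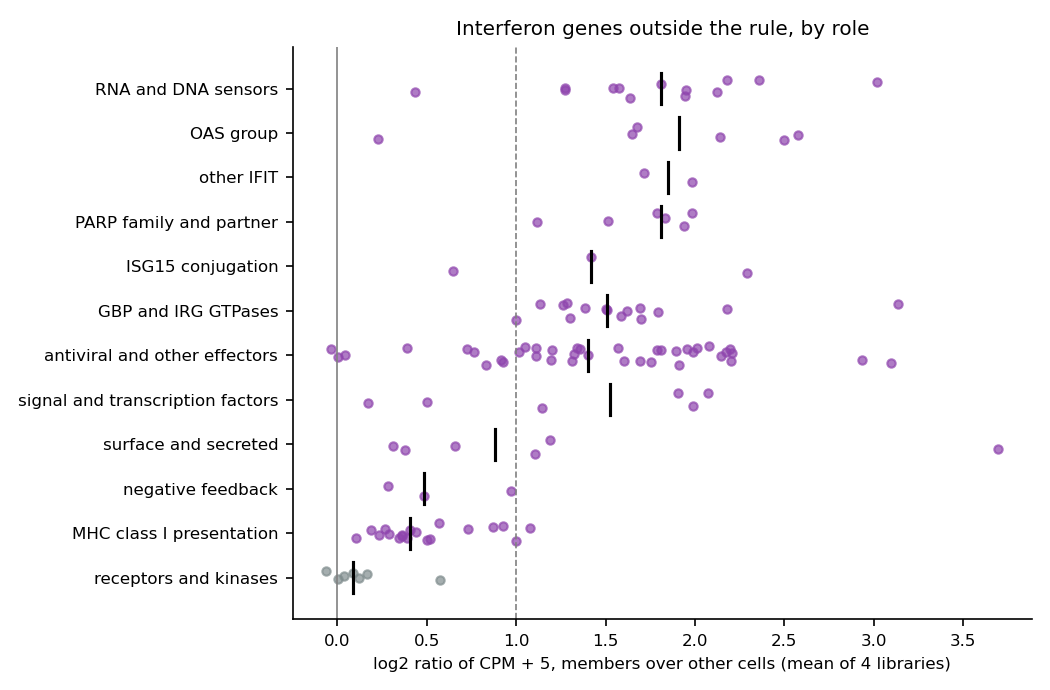
Log2 ratio of CPM + 5 in members over other cells, mean of 4 libraries, for interferon genes outside the rule at 10 CPM or more; each dot is a gene, black bars are medians, and the dashed line marks 2-fold. Sensors, OAS, IFIT and PARP genes have medians of 1.81 to 1.91, whereas MHC class I genes centre on 0.41 and the receptors and kinases (grey) on 0.087.

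The largest single group was of antiviral and other effectors, in which 25 of 39 genes were at least 2-fold higher in all 4 libraries and the median log2 ratio was 1.40. Among the most abundant of these, Ms4a4b was 1.70-fold, Ifi27l2a 2.48-fold and Shisa5 1.31-fold higher. Slfn5, a Schlafen family gene, had 366 and 137 CPM in ACC1 KO members and 253 and 130 CPM in WT members, against 14.0 to 29.5 CPM in the other cells. Slfn5 and the chemokine gene Cxcl10, which attracts cells bearing CXCR3, were picked after their values were seen. Cxcl10 was seen in few cells, 15.2 and 6.40% of ACC1 KO members and 8.33 and 7.07% of WT members. It had 215 and 53.9 CPM in ACC1 KO members and 55.6 and 35.8 CPM in WT members, against 0.483 to 1.22 CPM in the other cells. In ACC1 KO 1 its 583 UMIs came from 70 of 461 members, and 264 of them from 5 cells. In WT 1, 59 of its 97 UMIs came from 5 cells.

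Genes outside all interferon lists were named by size of ratio. The lists are not complete, and Ifi214 and Phf11c have relatives in them. Being outside the lists therefore does not mean that a gene is not interferon-induced. The leading ones were A330040F15Rik at 7.25-fold, A930037H05Rik at 4.87-fold, Phf11c at 4.52-fold and Ifi214 at 4.12-fold. Trafd1, a negative regulator of innate signalling, was 3.45-fold, Samd9l, an antiviral factor, 2.81-fold, Hsh2d 2.67-fold and Mov10, an RNA helicase, 2.57-fold higher. Gm20559, Nampt, Jaml and Epsti1 were 2.14- to 2.60-fold higher. No gene of the 8041 was at least 2-fold lower in members in all 4 libraries. The 6 lowest were Nrgn, Klra7, Itm2a, Hivep3, Rexo2 and Ppp1r14b, at 0.551 to 0.706 of the level in the other cells. Itm2a, together with Lef1 (0.756-fold), belongs to the markers of immature iNKT0 cells, all 3 of which at 10 CPM or more were lower in members in all 4 libraries. The drop was not particular to them. Of all 8041 genes 25.1% were lower in all 4 libraries, as were all 6 T cell markers listed.

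Transcripts of type I and type III interferons were at or near 0. The 20 genes listed for these ligands gave 1 and 0 UMIs in members of ACC1 KO 1 and 2 and 1 and 2 UMIs in members of WT 1 and 2. Over every barcode of each library they gave 5, 14, 7 and 11 UMIs (ACC1 KO 1, ACC1 KO 2, WT 1, WT 2) of 29066597 to 74190167 UMIs in all. Ifng, which encodes interferon gamma and is made by iNKT1 cells, had 94.9 and 135 CPM in ACC1 KO members and 52.7 and 85.4 CPM in WT members, 1.21-fold the level in the other cells.

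The level of the other interferon genes climbed with the number of rule genes detected. Each cell was thinned to 2000 UMIs and its UMIs of the interferon-induced genes outside the rule were summed, MHC class I genes left out. The median was 48 and 38 UMIs in ACC1 KO members and 48 and 40 UMIs in WT members, against 19 UMIs in the other cells of every library. Cells with 0 rule genes had a median of 18 UMIs in each library. With 2 rule genes, just outside the rule, medians were 31 and 25 UMIs in the ACC1 KO libraries and 32 and 26 UMIs in the WT libraries. With 3 rule genes, just inside it, they were 39 and 31.5 UMIs (ACC1 KO) and 44 and 33 UMIs (WT), and with all 6 they were 87 and 65 UMIs (ACC1 KO) and 85 and 60 UMIs (WT). Medians at 4 rule genes were 49 and 37 UMIs (ACC1 KO) and 45 and 40 UMIs (WT), so that the WT 1 line climbed over the threshold and was then nearly level, while the other 3 lines went on climbing. Above the 90th percentile of the other cells lay 79.0 and 72.8% of ACC1 KO members and 86.9 and 71.7% of WT members. Members of the libraries numbered 1 had the higher medians in both genotypes, and their cells were shallower; the part of depth in this was not tested.

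**Figure D3:**
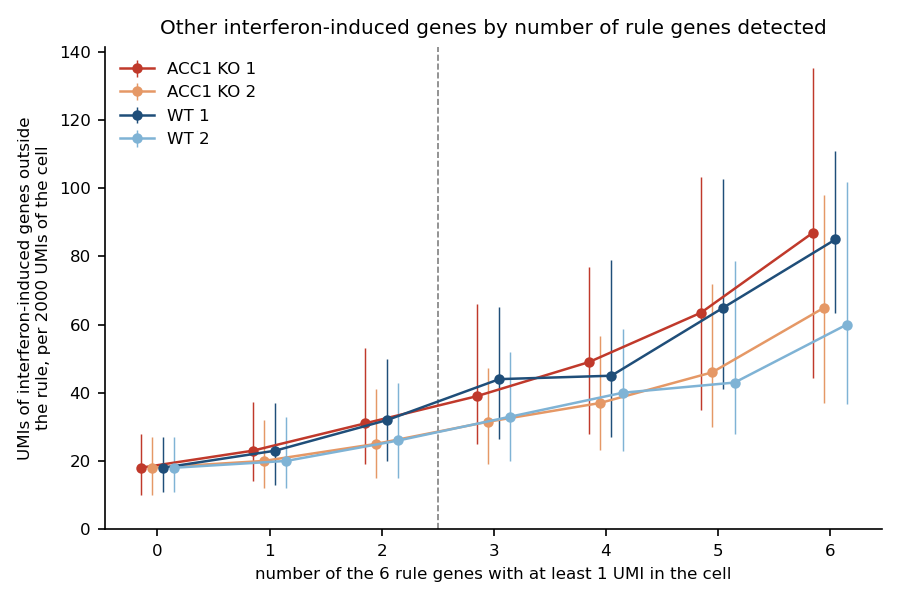
Median UMIs of interferon-induced genes outside the rule (MHC class I left out) per 2000 UMIs of a cell, against the number of rule genes detected, by library; bars run from the 10th to the 90th percentile of cells and the dashed line marks the rule. All 4 lines start at 18 UMIs and climb, in WT 1 with a nearly level stretch between 3 and 4 rule genes, to 87 and 65 UMIs in the ACC1 KO libraries and 85 and 60 UMIs in the WT libraries.

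Most members were of the iNKT1 kind, which makes interferon gamma and is the main thymic subset. The iNKT1 gate, at least 4 of 10 markers such as Tbx21 (the lineage factor T-bet), Il2rb and Nkg7, held 91.1 and 94.2% of ACC1 KO members and 93.3 and 95.5% of WT members. It also held 88.5 and 92.1% (ACC1 KO) and 89.8 and 95.8% (WT) of the other cells. A gate of this kind is a range: 4.26 to 9.85% of eligible cells lay at 3 or 4 markers. Read the other way, members made up 2490 of 25914 iNKT1-gated cells (9.61%) and 108 of 1158 iNKT2-gated cells (9.33%), the interleukin 4 producing kind. They made up 8 of 247 iNKT17-gated cells (3.24%, Clopper-Pearson 95% interval 1.41 to 6.28%) and 41 of 697 iNKT0-gated cells (5.88%). With every cell thinned to 2000 UMIs these shares were 3.77, 2.83, 0.541 and 0.427% in the same order, with 1 member left in each of the iNKT17 and iNKT0 gates. The intervals cover counting error only, and subsets differ in depth. Cells of the 4 libraries were pooled for these shares, and their order did not hold in each library. In WT 2, unthinned, members were 14 of 142 iNKT0-gated cells (9.86%) and 9.30% of iNKT1-gated cells.

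Among iNKT2-gated cells the share of members was uneven. It was 6.63 and 10.3% in ACC1 KO 1 and 2, and 7.08 and 15.03% in WT 1 and 2, with 15 to 44 members in each library. The iNKT2 gate held 4.99 and 4.47% of ACC1 KO members and 4.81 and 2.92% of WT members. The difference, 0.865 percentage points, did not exceed the spread between libraries (exact permutation test over libraries, two-sided, p = 0.667), and it turned to -0.0796 without WT 2 and to -0.317 with thinned cells. Between 2 and 2 libraries this test cannot give a p below 0.3333.

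Members were a larger share of the ACC1 KO libraries within each number. They were 461 of 5714 eligible cells in ACC1 KO 1 (8.07%, 95% interval 7.37 to 8.80%) and 985 of 8011 in ACC1 KO 2 (12.3%, 11.6 to 13.0%). They were 312 of 4773 in WT 1 (6.54%, 5.85 to 7.28%) and 891 of 9556 in WT 2 (9.32%, 8.75 to 9.92%). The genotypes overlapped, since ACC1 KO 1 lay below WT 2. The difference of means was 2.25 percentage points (exact permutation test, two-sided, p = 0.667), with 1.53 points between the libraries numbered 1 and 2.97 points between those numbered 2. Thinned to 2000 UMIs per cell, the shares were 3.68 and 4.35% in ACC1 KO 1 and 2 and 2.81 and 3.79% in WT 1 and 2, overlapping again. For comparison, 1 barcode in each library met the gate among those with Rag1, 0.505 to 1.43% of them, at median depths of 2292.5 to 3485 UMIs.

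Leaving Isg15 out of the count, a choice made after its levels were seen, separated the genotypes. With at least 3 of the 5 other genes the shares were 7.35 and 8.56% in ACC1 KO 1 and 2, against 5.80 and 6.59% in WT 1 and 2. With at least 2 of the 5 they were 13.9 and 15.6% (ACC1 KO) against 10.5 and 11.8% (WT). In both cases the exact permutation p was 0.333, the smallest that 2 against 2 libraries allow, so this separation cannot pass a threshold of 0.05.

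**Figure D4:**
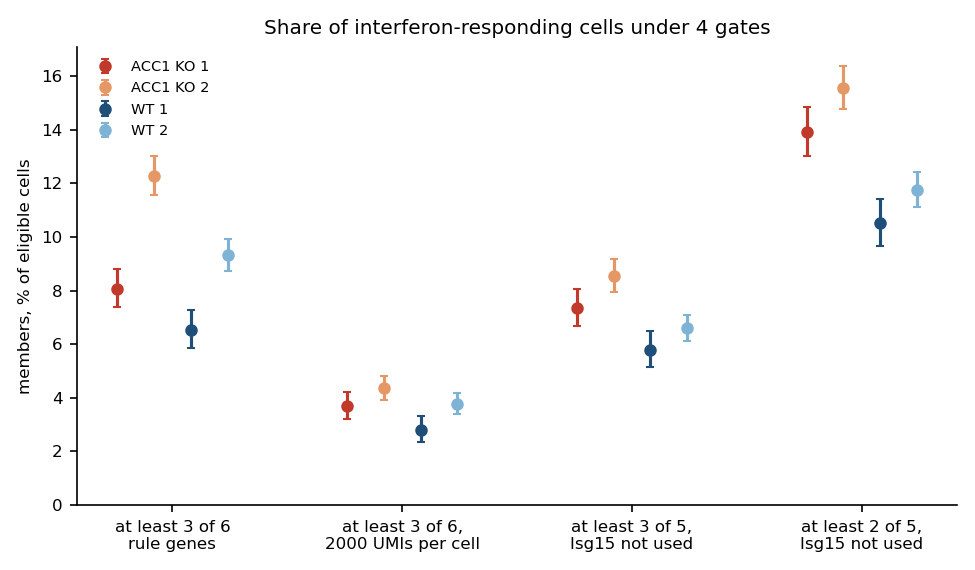
Members as a percentage of eligible cells in each library under 4 gates, with exact 95% Clopper-Pearson intervals that cover counting error only. ACC1 KO 1 lies below WT 2 with the rule as given and with thinned cells, while both ACC1 KO libraries lie above both WT libraries when Isg15 is not used.

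Within members, the genes that differed between genotypes in edgeR were mostly lipid genes, and calls among interferon genes depended on the fit. The targeted gene, Acaca, lies on the plus strand of chromosome 11 between 84129672 and 84401651 (mm10). Its level was 49.5 and 55.6 CPM in ACC1 KO members and 24.7 and 26.5 CPM in WT members. Its log2 fold change was 1.09 ± 0.20 (SE; edgeR quasi-likelihood test, adjusted p = 0.221, n = 2 libraries each). Counts from the 3′ end check nothing of a deletion whose position is not given, so Acaca does not test the labels. Of 10915 genes tested on UMI sums per library, 5 rose in ACC1 KO members (0.0458%) and 0 fell, with 196 higher and 125 lower at an unadjusted p under 0.05. DESeq2 called 11 higher (0.101%) and 1 lower (0.00916%). In the other cells edgeR called 1 of 14593 higher (0.00685%), Scd1, and 0 lower, with 626 at an unadjusted p under 0.05, and DESeq2 called 75 higher (0.514%) and 29 lower (0.199%). The count in members was 0 when at least 2 rule genes sufficed (339 at an unadjusted p under 0.05). It was 7 without ACC1 KO 1, 10 without ACC1 KO 2, 11 without WT 1 and 14 without WT 2, and Scd2, Scd1 and Srebf1 were among the calls each time. The 2 libraries of each genotype differed in sex genes, as given above, so they did not come from the same animal. How many animals gave each library is not stated. These p-values measure the spread between libraries, in which sex and depth also differ. With the library number, which goes with sex and depth, as a term (a replicate block), edgeR called 250 higher (2.29%) and 136 lower (1.25%). With 2 libraries per genotype and this further term, little spread between libraries is left to measure for each gene. The p-values of that fit rest mainly on spread shared across genes.

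Of the 5 genes, 4 are described here, which serve fatty acid synthesis, desaturation and activation. Scd2, which introduces the double bond of oleate and its relatives, had 215 and 231 CPM in ACC1 KO members and 49.9 and 29.3 CPM in WT members (log2 fold change 2.62 ± 0.24, edgeR adjusted p = 0.0174). Scd1, another desaturase, had 151 UMIs in ACC1 KO members and 1 UMI in WT members, a ratio of UMI shares of 122 with a 95% counting interval of 21.5 to 4832 (edgeR adjusted p = 0.0215). Srebf1, which encodes the SREBP1 factor that drives fatty acid synthesis genes, had 66.8 and 67.6 CPM in ACC1 KO members and 21.2 and 19.5 CPM in WT members (log2 fold change 1.79 ± 0.19, edgeR adjusted p = 0.0215). Acsl3, an acyl-CoA synthetase that activates fatty acids, had 24.7 and 26.0 CPM in ACC1 KO members and 6.88 and 5.99 CPM in WT members (log2 fold change 2.07 ± 0.26, edgeR adjusted p = 0.0343). None of these 4 overlapped between genotypes. In the other cells their log2 fold changes were 2.84 for Scd2, 7.71 for Scd1, 1.70 for Srebf1 and 2.11 for Acsl3, and the difference between the cell sets passed for none of them (edgeR, smallest adjusted p = 0.9999).

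The lists of lipid genes leaned the same way. Of 15 fatty acid synthesis genes tested, 3 rose and 0 fell, and 8 were higher without overlap between genotypes, 53.3% against 9.42% of all genes. Their median log2 fold change was 0.53, against -0.0012 for all genes. Of 23 sterol synthesis genes and targets of SREBP2, the factor that drives them, 1 rose and 20 were higher without overlap, 87.0%, with a median of 0.73. Fads1, a desaturase of long fatty acids, had 11.8 and 7.64 CPM in ACC1 KO members and 0.573 and 1.53 CPM in WT members but an adjusted p of 0.199 in edgeR. Cyp51, a sterol demethylase, had 31.02 and 24.2 CPM in ACC1 KO members and 6.31 and 8.92 CPM in WT members (edgeR adjusted p = 0.114, DESeq2 adjusted p = 0.0247). Insig1, which holds SREBP precursors back, had a log2 fold change of 1.49 (edgeR adjusted p = 0.177). The medians in the other cells were 0.34 for the fatty acid list and 0.72 for the sterol list. With the library number as a term 7 of the 15 and 13 of the 23 genes rose and 0 fell. Those that rose made up 46.7 and 56.5%, against 2.29% of all genes. That fit also called 10 of 15 cell handling and immediate early genes higher (66.7%) and 0 lower. The median log2 fold change of that handling list was 0.17 within number 1 and 0.73 within number 2. Of 6 T cell markers the fit called 3 lower (50%) and 0 higher, against 1.25% of all genes lower. Without overlap between genotypes 4 of these 6 were lower (66.7%), against 19.6% of all genes. The lipid lists were chosen with results of the same libraries known, so their direction is no independent evidence.

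None of 126 interferon-induced genes outside the rule passed between genotypes in members with edgeR. At an unadjusted p under 0.05 there were 4 higher and 0 lower, against 196 and 125 of all 10915 genes. DESeq2 called 1 higher and 0 lower, against 11 and 1 of all genes (0.101 and 0.00916%). With the library number as a term edgeR called 9 higher and 1 lower, 7.14 and 0.794% of the 126. The shares of all genes in that fit were 2.29 and 1.25%. Their median log2 fold change was -0.040, and 6 were higher and 15 lower without overlap, 4.76 and 11.9%, against 9.42 and 19.6% of all genes tested. Irf7 had a log2 fold change of 0.17 ± 0.17 and Oasl2 of 0.37 ± 0.18, each with an edgeR adjusted p of 0.9998. The 6 rule genes, given without test, had log2 fold changes of -0.030 (Isg15) to 0.30 (Rsad2). In simulated counts of this design the test recovered 58.7% of genes changed 2-fold and 95% of those changed 4-fold. The simulation gave every gene the same spread and had no effect of library number. Its shares need not hold for the libraries themselves, and changes of either size could have been missed.

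The gene called by DESeq2 was Ifitm3, which encodes a membrane protein that blocks entry of viruses. It had 665 and 738 CPM in ACC1 KO members and 269 and 391 CPM in WT members, higher in both ACC1 KO libraries without overlap. Its log2 fold change was 1.14 ± 0.24 (edgeR adjusted p = 0.337, DESeq2 adjusted p = 0.00996), and 1.33 in the other cells. Ms4a4c had 41.7 and 27.7 CPM in ACC1 KO members and 20.1 and 15.9 CPM in WT members, and Ifi44 had 48.4 and 32.2 CPM in ACC1 KO members and 24.1 and 20.8 CPM in WT members. Neither overlapped between genotypes or passed adjustment (edgeR adjusted p of 0.602 and 0.732). Samhd1, a nucleotide triphosphohydrolase, and Oas2 overlapped between genotypes. Within number 1 and within number 2 the log2 fold change was 0.45 and 0.37 for Samhd1, 0.59 and 0.73 for Oas2, and 1.38 and 0.98 for Ifitm3. With the library number as a term the edgeR adjusted p was 8.8e-25 for Ifitm3, 1.2e-05 for Ms4a4c and 4.9e-05 for Ifi44. It was 0.000434 for Oas2, 0.00767 for Samhd1 and 0.0404 for Oasl2. Such p-values rest mainly on spread shared across genes, here and in the paragraphs that follow. Cxcl10 had a log2 fold change of 1.62 ± 0.87 (edgeR adjusted p = 0.9998), with overlap, and of 0.39 without ACC1 KO 1.

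**Figure D5:**
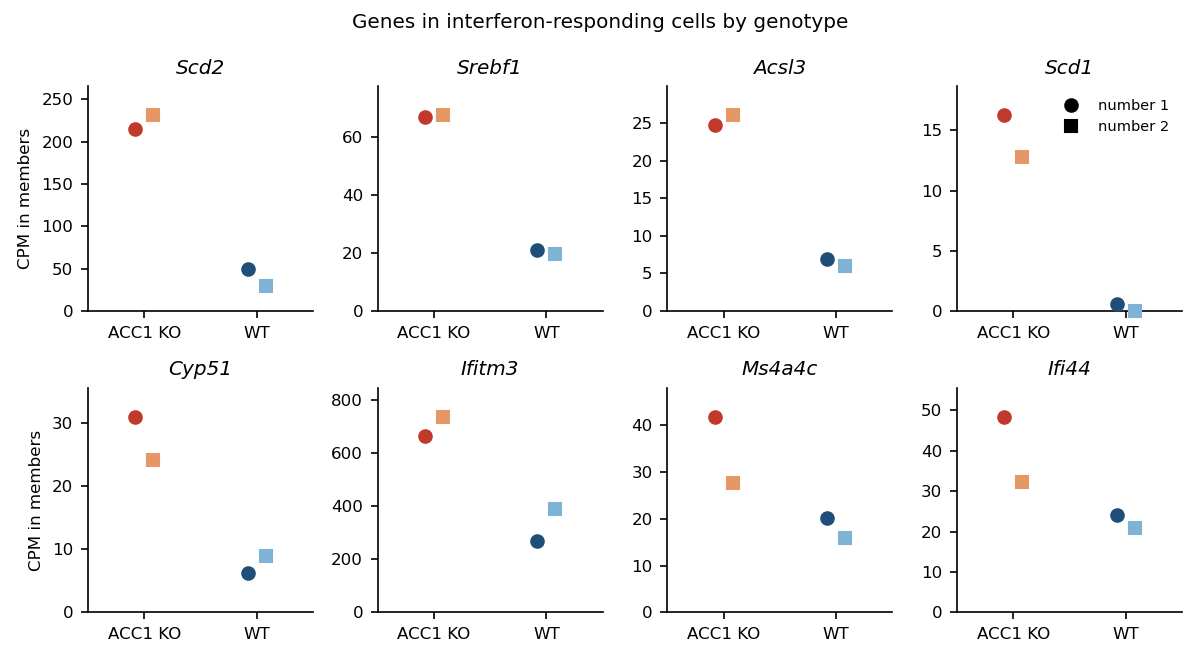
CPM in members of each library for 4 genes that rose in ACC1 KO members (Scd2, Srebf1, Acsl3, Scd1), for Cyp51 and for 3 interferon-induced genes (Ifitm3, Ms4a4c, Ifi44). Cyp51 and these 3 did not pass in edgeR without the library number as a term. The 3 were picked among those higher in ACC1 KO, while of 126 such genes 6 were higher and 15 lower without overlap. Circles are libraries numbered 1 and squares those numbered 2. In all 8 panels both ACC1 KO libraries lie above both WT libraries, and for Scd1 the WT members held 1 UMI in all.

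Receptors and ligands of the pathway did not pass without the library number as a term. Ifnar2 had 90.9 and 78.9 CPM in ACC1 KO members and 122 and 110 CPM in WT members, lower without overlap (log2 fold change -0.39 ± 0.17, edgeR adjusted p = 0.9998). Of 8 receptor and kinase genes tested, edgeR called 0 and DESeq2 called 0. At an unadjusted p under 0.05 in edgeR 0 were higher and 1 lower, against 196 and 125 of all 10915 genes. The level of Ifng given above was higher in both ACC1 KO libraries, with a log2 fold change of 0.77 ± 0.29 (edgeR adjusted p = 0.9998). With the library number as a term the edgeR adjusted p was 1.3e-08 for Ifng and 0.0218 for Ifnar2.

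Genes of cell death were examined because survival is the subject of the series. Of 16 pro-apoptotic genes tested in members, edgeR called 0 and DESeq2 called 0. At an unadjusted p under 0.05 in edgeR 2 were higher and 1 lower, against 196 and 125 of all 10915 genes. Bbc3 (PUMA), which triggers apoptosis by binding BCL2 proteins, had 73.1 and 47.1 CPM in ACC1 KO members and 29.8 and 29.4 CPM in WT members (log2 fold change 1.06 ± 0.23, edgeR adjusted p = 0.400). Pmaip1 (NOXA), of the same class, had 5.17 and 6.45 CPM in ACC1 KO members and 2.87 and 2.51 CPM in WT members (edgeR adjusted p = 0.9998). Of 10 survival genes, edgeR called 0, with 1 higher and 0 lower at an unadjusted p under 0.05, and DESeq2 called 0. Bcl2 itself had 814 and 494 CPM in ACC1 KO members and 500 and 382 CPM in WT members, with overlap. The log2 fold change of Bbc3 in the other cells was 1.03, close to that in members. Bbc3 and Bcl2 passed with the library number as a term (edgeR adjusted p of 6.4e-09 and 1.2e-06), and Pmaip1 did not (0.0573). That fit called 2 of the 16 pro-apoptotic genes higher (12.5%) and 0 lower. Of the 10 survival genes it called 1 higher and 1 lower (10% each). Its shares over all genes were 2.29% higher and 1.25% lower.

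The effect of genotype was then compared between members and other cells. Of 13345 genes tested for that difference, 3 had a more positive change in members (0.0225%) and 11 a more negative one (0.0824%), and none of the 14 was an interferon-induced gene of the lists. With genotype, library number and cell set as terms in place of a term for each library, edgeR called 0 (317 at an unadjusted p under 0.05), so these calls rest on pairing the 2 cell sets within a library. DESeq2 called 4, cells thinned to 2000 UMIs gave 1, and leaving out 1 library gave 25 (ACC1 KO 1), 36 (ACC1 KO 2), 45 (WT 1) and 19 (WT 2). Ccl5, a chemokine gene of mature iNKT1 cells, had 2719 and 2557 CPM in ACC1 KO members and 1547 and 2123 CPM in WT members, against 2124 and 2060 CPM (ACC1 KO) and 1542 and 2277 CPM (WT) in the other cells. The difference of its log2 fold changes was 0.40 ± 0.049 (edgeR adjusted p = 5.1e-08). Among cells of the iNKT1 gate only it was 0.31 (edgeR adjusted p = 4.2e-07). Ccl5 is itself 1 of the 10 markers of that gate, so this value is no independent check. On the other side, Tox, a factor of T cell development, had 143 and 207 CPM in ACC1 KO members and 287 and 217 CPM in WT members, against 219 and 307 CPM (ACC1 KO) and 318 and 209 CPM (WT) in the other cells, a difference of -0.55 ± 0.073. Among iNKT1-gated cells the difference for Tox was 0.25 (edgeR adjusted p = 0.857), and 1 of the 14 genes was still called. Icos, a gene of the iNKT2 list, was among the other calls, with a difference of -0.33 and of -0.20 among iNKT1-gated cells.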

How the data were processed

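UMI counts per gene and barcode of 4 libraries were used as deposited by the authors, who made them with Cell Ranger 7.0.0 on mm10, per the submitters' processing notes. The deposited gene and barcode lists carried no measurement. Totals were 29066597 to 74190167 UMIs per library. The members and gene lists were chosen with earlier results of these data known. Eligible cells were filtered as the report states, and doublets were kept. Raw counts were summed per library over members and over other cells. Genotypes, and the difference of their effect between cell sets with the library as a term, were tested with the edgeR 4.0.16 quasi-likelihood F test (robust, TMM, filterByExpr), with Benjamini-Hochberg adjustment and a threshold of 0.05. DESeq2 1.42.0 was an alternative. CPM ratios used 5 added CPM. Named genes were Acaca, the rule genes, for each interferon role up to 5 with the highest CPM in members, up to 12 others higher and 6 lower in members, all genes called in members if 5 or fewer, up to 4 with the smallest p of each list, and up to 5 per direction of the difference that averaged 20 CPM or more without overlapping. Some genes the rule allows are not reported here, though counts over lists include them. The tests were run on simulated counts first. The alternatives were other gates, thinning to 2000 UMIs or to the smallest sum, doublets or deep cells left out, limits of 5% mitochondrial UMIs or 1000 genes, cycling cells kept, other filters and size factors, each library left out, and the replicate number as a block.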

Additional observations from a re-analysis of the deposited data

Results flagged for a closer look

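The effect of ACC1 KO differed between members and other cells in 14 genes (edgeR quasi-likelihood test of the difference), and the 8 named by size and level are given here as differences of log2 fold changes. It was more positive in members for Icam1 (0.54, adjusted p = 0.0266), an adhesion molecule, Ccl5 (0.40, 5.1e-08) and Gzma (0.30, 0.0232), a granzyme. Icam1 had 52.4 and 61.0 CPM in ACC1 KO members and 55.6 and 47.2 CPM in WT members, against 32.7 and 36.4 CPM (ACC1 KO) and 42.4 and 43.8 CPM (WT) in the other cells. It was more negative for 2600014E21Rik (-1.22, adjusted p = 4.5e-06), Gm4258 (-0.86, 0.0323), B630019A10Rik (-0.69, 0.0243), Tox (-0.55, 1.6e-07) and Ext1 (-0.53, 0.0399). Among iNKT1-gated cells the differences were 0.51 for Icam1, 0.31 for Ccl5, 0.21 for Gzma, -0.29 for 2600014E21Rik, -0.47 for Gm4258, -0.28 for B630019A10Rik, 0.25 for Tox and -0.30 for Ext1. Ccl5 alone of these 8 passed there, and it is itself a marker of that gate. With cells thinned to 2000 UMIs the difference turned to 0.44 for 2600014E21Rik and 0.41 for Gm4258, and 1 of the 14 genes, Ccl5, was still called. With genotype, library number and cell set as terms in place of a term for each library, edgeR called 0 of the 14.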

How the results depend on the processing

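The difference of 2.25 percentage points in the share of members kept its sign under every gate tried and ran from 0.138 to 4.37 with 1 library left out. The iNKT2 difference of 0.865 turned to -0.317 with cells thinned to 2000 UMIs, and ran from -0.0796 to 1.81 with 1 library left out. The median log2 ratio of interferon genes, 1.35, was 1.16 with at least 2 rule genes, 1.59 with at least 4, 1.73 with thinned cells and 1.12 with 20 CPM added. The 5 genes changed in members became 0 with at least 2 rule genes, 0 without Isg15 at 2 of 5 (341 at an unadjusted p under 0.05 in edgeR), 2 with thinned cells, 75 without a filter on low counts, 2 at a mean of at least 10 CPM and 12 with DESeq2, and ran from 7 to 14 with 1 library left out. The 14 genes of the difference between cell sets became 22 with at least 2 rule genes, 9 with at least 4, 1 with thinned cells, 5 with high doublet scores left out, 6 without the deepest 5% of cells, 28 without Isg15 at 2 of 5, 5 among iNKT1-gated cells, 4 with sums thinned to the smallest total, 4 with DESeq2 and 0 with genotype, number and cell set as terms (317 at an unadjusted p under 0.05), and ran from 19 to 45 with 1 library left out. Single genes that changed sign were Lyz2 (-0.17 among iNKT1-gated cells), 2600014E21Rik (0.44) and Gm4258 (0.41) with thinned cells, and Tox (0.25 among iNKT1-gated cells). The causes were not tested; thinning leaves fewer genes to test.

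The labels give same-numbered libraries only a number, though these also shared sex genes and depth, and with 2 pairs the replicate block is an alternative. Deviations of same-numbered libraries from their group means correlated at r = 0.473 over 10915 genes, which are not independent. With the block, 386 genes passed in members, 250 higher and 136 lower. Alternatives marked in the text as chosen after seeing the data include both gates without Isg15. The restriction to iNKT1-gated cells was not planned in advance either. Small subsets and sums of few UMIs limit what could be detected.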

Other observations

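Cells left out by the gate also met the rule's detection of at least 3 genes. Among cycling cells these were 17 of 216 and 51 of 357 in ACC1 KO 1 and 2, and 1 of 66 and 26 of 217 in WT 1 and 2. Their shares were 7.87 and 14.3% (ACC1 KO) and 1.52 and 11.98% (WT), at median depths of 10554 to 19323 UMIs. Among barcodes with Cd79a they were 7.10 and 11.9% (ACC1 KO) and 1.89 and 23.5% (WT).

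Lyz2, a myeloid gene, had 90 UMIs in members of ACC1 KO 1 and 115 in those of ACC1 KO 2, against 5 in WT 1 and 27 in WT 2. A single cell held 89 of the 90 UMIs in ACC1 KO 1 and 79 of the 115 in ACC1 KO 2, and Lyz2 was chosen after its values were seen.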
